A study of Mus musculus with 51 samples.

Results

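The 10 genes followed here encode feedback regulators and readouts of FGF/ERK signalling and were measured through Bmp4-induced mesoderm differentiation of mouse ES cells. They were taken by symbol from the expression tables, and all 10 were among the 24538 genes listed. They comprised the MAP kinase phosphatases Dusp4 and Dusp6, the Sprouty genes Spry1, Spry2 and Spry4, the Spred genes Spred1 and Spred2, the ETS factors Etv4 and Etv5, and Il17rd, which encodes the membrane protein Sef. All 10 exceeded 1 FPKM (fragments counted per kilobase of transcript, scaled to the mapped fragments of a library) in at least 1 column of every comparison, so none was lost to the filter on low values.

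FGF ligands bind receptor tyrosine kinases, which activate Ras and the kinases Raf, MEK and ERK. Active ERK enters the nucleus and induces, among other genes, its own antagonists: Dusp6 and Dusp4 remove phosphate from ERK in the cytoplasm and nucleus, Sprouty and Spred proteins restrain Ras activation, and Sef acts at the membrane. Etv4 and Etv5 are transcription factors whose expression follows FGF signals in many embryonic tissues. In the mouse gastrula, FGF signalling through Fgf8 and Fgfr1 is known for its role in cells that leave the primitive streak as mesoderm.

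WT cells were F1G4 mouse ES cells, sampled as aggregates before differentiation (ES) and after 1, 2 and 3 days in medium with 20 ng/ml Bmp4. Cells lacking Eomes, T or both (Eomes KO, T KO, Eomes/T dKO) were CRISPR/Cas9 derivatives of F1G4, each grown from a picked clone, and were measured on days 2 and 3. The dKO line was made from Eomes KO cells, so those lines are not independent. Smad4 KO cells, measured on days 1 and 2, lack the first Smad4 exon and were compared with the conditional-allele cells they came from, called Smad4 line WT here. All differentiated cells received the same Bmp4 dose, and all ES cells had been kept on feeder fibroblasts that were removed before aggregation. The labels list 2 WT samples per F1G4 stage and 1 sample per KO line and day, but the tables hold 1 value per condition. No SD, n or test could therefore be given for any value, and the ratios describe these columns only. Depth is unknown, since FPKM carries no read totals. In bulk RNA, fewer cells of a type and less RNA per cell cannot be told apart.

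The targeted genes followed the labels: in T KO cells T had a log2 ratio to WT of -2.75 on day 2 and -6.75 on day 3, and in Eomes KO cells Eomes had -1.96 and -6.20. Whole-gene FPKM does not check the Smad4 deletion. The 7 feeder fibroblast markers summed to between 0.600 and 5.36 FPKM over the compared columns, and the 6 nascent mesoderm markers summed in WT cells to 1.44 FPKM in ES cells and 390.4 FPKM on day 3.

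The sequence just upstream of a start site is shown for 3 members that were lower in Eomes KO cells on day 3 (Dusp6, Spry2, Etv5) and for 1 that was not (Spry1), since the 10 members did not move as one. RefSeq windows (mm10) were held for 7 of the 10 members. Each line gives the 250 bases before the start, 5′ to 3′ on the gene's strand, and capitals mark GGAA or its complement TTCC, the letters at the centre of ETS factor sites. The windows are chr10:99262981-99263230 (plus) for Dusp6, chr14:105896820-105897069 (minus) for Spry2, chr16:22439571-22439820 (minus) for Etv5 and chr3:37639697-37639946 (plus) for Spry1.
Dusp6: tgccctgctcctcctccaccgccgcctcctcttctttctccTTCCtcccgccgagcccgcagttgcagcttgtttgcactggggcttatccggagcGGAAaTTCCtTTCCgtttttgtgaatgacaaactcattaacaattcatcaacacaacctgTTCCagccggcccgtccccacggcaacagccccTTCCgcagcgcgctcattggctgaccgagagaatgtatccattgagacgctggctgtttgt
Spry2: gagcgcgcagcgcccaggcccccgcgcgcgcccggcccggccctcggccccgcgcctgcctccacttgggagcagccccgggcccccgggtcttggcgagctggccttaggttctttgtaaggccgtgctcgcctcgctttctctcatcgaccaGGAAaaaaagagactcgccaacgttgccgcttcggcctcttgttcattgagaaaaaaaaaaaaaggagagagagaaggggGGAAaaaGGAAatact
Etv5: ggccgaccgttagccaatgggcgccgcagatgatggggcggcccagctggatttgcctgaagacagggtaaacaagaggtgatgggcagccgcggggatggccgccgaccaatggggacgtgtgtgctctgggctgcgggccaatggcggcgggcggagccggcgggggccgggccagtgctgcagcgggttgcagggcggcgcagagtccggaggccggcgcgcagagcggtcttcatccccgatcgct
Spry1: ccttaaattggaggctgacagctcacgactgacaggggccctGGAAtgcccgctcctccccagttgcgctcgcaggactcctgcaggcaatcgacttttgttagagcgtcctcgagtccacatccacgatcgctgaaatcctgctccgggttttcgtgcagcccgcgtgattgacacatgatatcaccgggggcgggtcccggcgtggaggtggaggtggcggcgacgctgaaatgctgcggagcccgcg
On both strands, CCGGAA, the longer CCGGAAGT that contains it, and the T-box factor motif GGTGTGA had 0 matches in all 7 windows, and they occurred in 12.2%, 2.93% and 3.31% of 27025 such windows. GGAA was searched only after those 3 had given no match. It occurred in 6 of the 7 member windows and in 93.4% of all windows, with 6 matches in Dusp6, 3 in Spry2, 1 in Spry1 and 0 in Etv5. Of the windows not shown, Spred2 had 7 matches, Spred1 4 and Il17rd 4. Among these genes only Il17rd was more than 2-fold lower in Eomes KO cells on day 3. These are counts of letters in short windows and do not locate a binding site.

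In WT cells the members moved in opposite directions as mesoderm formed. A member was called when its FPKM was above 1 in either column and its log2 ratio lay past 1 or -1, a 2-fold difference. From ES cells to day 3, 3 members rose (Dusp4, Dusp6, Il17rd), 3 fell (Spry4, Etv4, Etv5) and 4 did not pass, against 18.5% of 11554 examined genes that rose and 12.6% that fell.

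Dusp6 measured 29.0, 51.7, 63.5 and 68.6 FPKM at ES and days 1, 2 and 3, a log2 ratio of 1.24 from first to last. Dusp4 measured 8.75, 27.4, 15.8 and 25.5 FPKM at the same stages. Il17rd measured 5.84, 5.80, 8.96 and 15.99 FPKM. Dusp6 was highest among the members on every differentiation day, Dusp4 reached its highest WT value on day 1, and Il17rd differed little until day 2.

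Etv5 went the other way, with 63.1, 45.5, 28.6 and 18.1 FPKM at ES and days 1, 2 and 3, a log2 ratio of -1.80. Etv4 went from 19.1 to 9.55, 7.27 and 2.08 FPKM, a log2 ratio of -3.20. Spry4 went from 27.0 to 16.7, 5.94 and 6.07 FPKM, a log2 ratio of -2.15. The Etv genes were lower at each step, whereas most of the Spry4 difference lay between days 1 and 2.

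The remaining members varied less in WT cells. Spry2 measured 25.7, 16.9, 14.0 and 19.9 FPKM, and Spry1 5.14, 8.42, 7.21 and 5.32. Spred1 measured 37.7, 29.1, 35.1 and 44.7 FPKM, and Spred2 6.20, 5.40, 5.27 and 4.74. Within the Sprouty family Spry4 was thus the only member to pass over the 3 days, and neither Spred gene passed.

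Step by step, few members passed. Between ES cells and day 1, Dusp4 rose and Etv4 fell, the latter only just (log2 ratio -1.001), against 7.7% of all examined genes higher and 5.84% lower. Between days 1 and 2, 1 member fell (Spry4) and 0 rose, against 4.13% and 7.18%. Between days 2 and 3, 1 fell (Etv4) and 0 rose, against 4.06% and 6.14%.

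**Figure D1:**
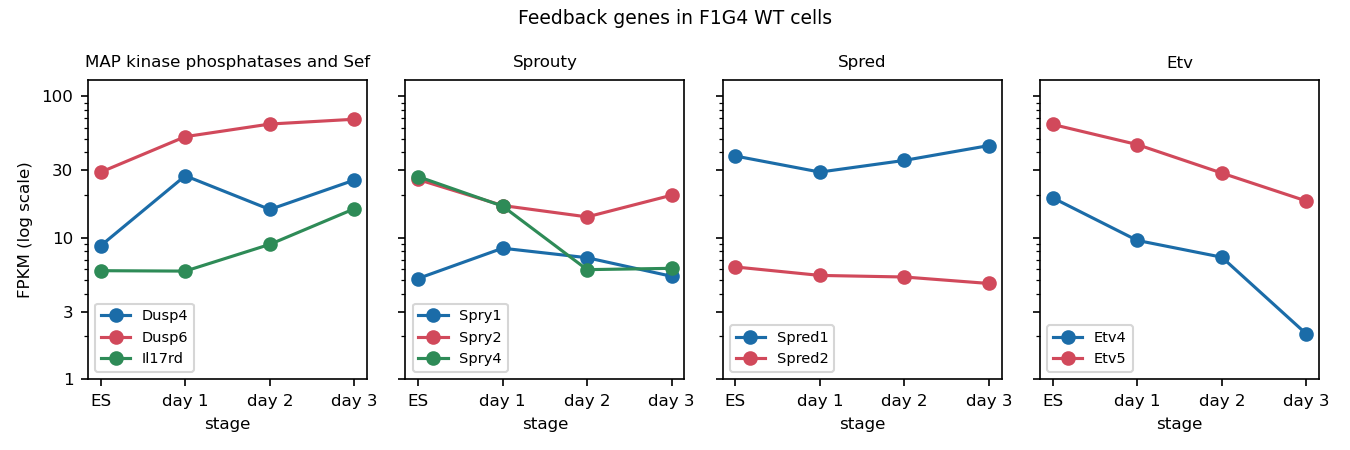
FPKM (log scale) of the 10 feedback genes in WT F1G4 aggregates (ES) and at the 3 later days, 1 value per point and no error available. Dusp6 goes from 29.0 to 68.6 FPKM while Etv5 goes from 63.1 to 18.1 and Etv4 from 19.1 to 2.08.

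The ligands and receptors changed identity over the same days. Fgf4, a ligand of pluripotent cells, measured 71.0, 40.8, 11.2 and 3.16 FPKM in ES cells and on days 1 to 3. Fgf5, a marker of the epiblast, measured 0.809, 8.39, 11.5 and 26.01 FPKM. Fgf8, the primitive streak ligand, measured 0.0172, 0.151, 13.7 and 55.3 FPKM. Fgf4 was thus the leading ligand at the start and Fgf8 at the end. Fgfr1, the main receptor measured here, was 10.0 FPKM in ES cells and 27.6 on day 3, and Fgfr2 was 4.05 and 7.21. Fgf13, an intracellular relative that is not secreted, Fgf15 and Fgf17 peaked at 6.56, 8.20 and 8.28 FPKM in WT cells.

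**Figure D2:**
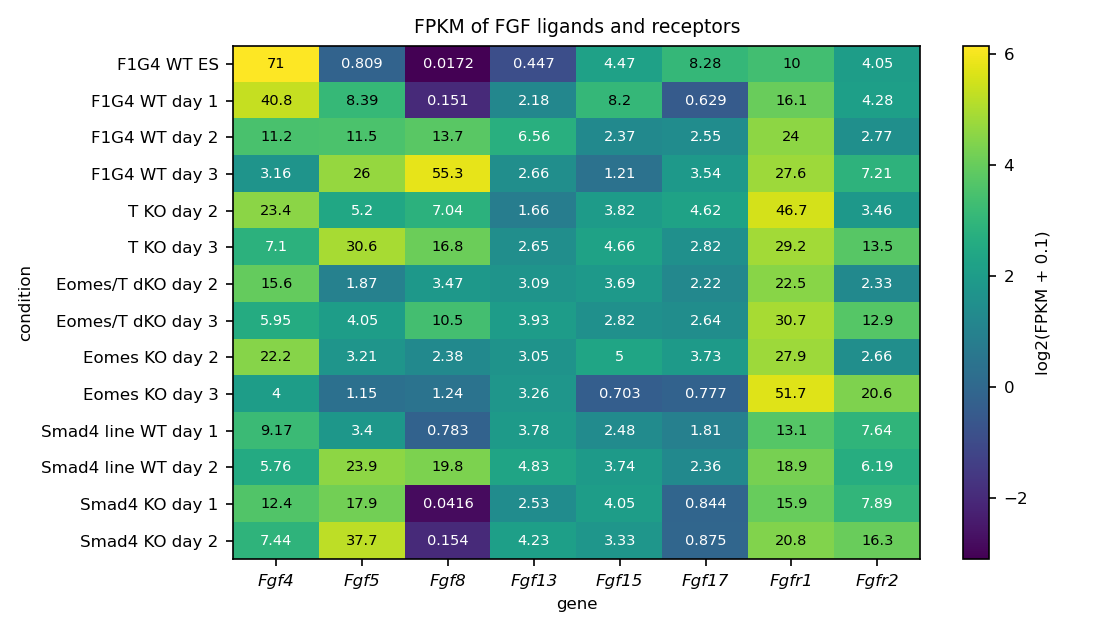
FPKM of the FGF ligands and receptors above 5 FPKM in at least 1 condition, with colour for log2(FPKM + 0.1) and 1 value per cell of the map. Fgf8 reads 55.3 in F1G4 WT cells on day 3, 16.8 in T KO, 10.5 in Eomes/T dKO and 1.24 in Eomes KO cells.

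Loss of Eomes, the T-box factor of early streak cells, went with lower levels of most feedback genes on day 3. On that day, 6 of 10 members fell in Eomes KO cells (Dusp4, Dusp6, Spry2, Spry4, Etv5, Il17rd) and 0 rose, against 9.01% of all examined genes lower and 7.39% higher. The members' median log2 ratio was -1.74, and that of all examined genes was -0.04. The log2 ratios also differed with transcript length, with a median of -0.27 for the 25% of genes with the shortest and 0.18 for the 25% with the longest transcripts. With that trend removed, 6 members were called.

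Spry4 measured 6.31 FPKM in the WT column and 0.767 after Eomes loss, a log2 ratio of -3.04. Dusp6 measured 71.7 and 11.7 FPKM, a log2 ratio of -2.62. Spry2 measured 20.8 and 4.10 FPKM, a log2 ratio of -2.34. These 3 inhibitors act at different levels of the pathway, Spry2 and Spry4 above Ras activation and Dusp6 on ERK itself. Dusp4 measured 26.6 and 5.37 FPKM (log2 ratio -2.31), Il17rd 16.7 and 3.797 (-2.14), and Etv5 18.96 and 7.43 (-1.35).

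The other 4 members did not pass. Spred1 measured 46.7 FPKM in WT and 28.8 in KO cells, Etv4 2.19 and 1.42, Spry1 5.56 and 4.88, and Spred2 4.96 and 5.01. Across all 14 conditions, 9 of the 10 members had their lowest FPKM in Eomes KO cells on day 3, and Spred2 had it in T KO cells on day 3. The Eomes KO day 3 column also had the smallest FPKM sum, and when columns were scaled to equal sums (TPM) 5 members were lowest there: Dusp4, Dusp6, Spry2, Spry4 and Il17rd.

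On day 2 the same line looked different. In Eomes KO cells 0 members passed in either direction, against 4.17% of all examined genes lower and 3.35% higher, and the median log2 ratio was 0.38. Spry4 measured 5.87 FPKM in WT and 11.4 in KO cells (log2 ratio 0.96), Etv4 7.19 and 12.7 (0.83), Spry2 13.9 and 23.1 (0.74), and Dusp4 15.6 and 10.0 (-0.63). The largest positive value was therefore just under the threshold, and 7 of 10 members had a positive ratio (6 of 10 when scaled to TPM).

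On day 3, 5 of these 6 members were lower in dKO cells, which were made from the Eomes KO line. In dKO cells 5 fell (Dusp4, Dusp6, Spry4, Etv5, Il17rd) and 0 rose, against 5.53% lower and 5.51% higher of all examined genes, with a median log2 ratio of -0.81. Dusp4 measured 26.5 FPKM in WT and 7.19 in dKO cells (log2 ratio -1.88), Dusp6 71.3 and 25.5 (-1.48), Spry4 6.29 and 2.27 (-1.47), Il17rd 16.6 and 7.32 (-1.18), and Etv5 18.9 and 9.02 (-1.06). Spry2, which was 4.10 FPKM in Eomes KO cells, was 15.2 in dKO cells, against 20.7 in their WT column. All 5 called members had a lower FPKM in Eomes KO than in dKO cells on day 3, but scaled to TPM Etv5 had the lower log2 ratio in dKO cells (-1.17, against -1.07 in Eomes KO). With 1 value per line, and clones that may differ, that difference was not tested. Etv5 and Il17rd lost their call when the trend with transcript length was removed (-0.97 and -0.94), and Etv5 also with a pseudocount of 1 (-0.99).

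On day 2, 0 members passed in dKO cells, against 4.5% of all examined genes lower and 3.48% higher, and the median was -0.03 (-0.44 when scaled to TPM). Dusp4 had the lowest log2 ratio (-0.76, from 15.6 to 9.17 FPKM) and Spred1 the highest (0.53, from 34.8 to 50.2 FPKM).

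After loss of T, the factor of nascent mesoderm, most members stayed within 2-fold of WT on day 3. Only Dusp4 fell, from 25.7 FPKM in WT to 12.7 in T KO cells (log2 ratio -1.02), and 0 members rose, against 3.92% lower and 2.12% higher of all examined genes. That call lay at the threshold and was lost with a pseudocount of 1. Il17rd measured 16.1 and 8.72 FPKM (-0.89), Spred2 4.79 and 2.76 (-0.79), Dusp6 69.3 and 47.2 (-0.55) and Spry4 6.11 and 7.45 (0.29). Of the 10 members, 8 had a negative ratio. Their median was -0.53, and that of all examined genes was -0.01.

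T KO cells on day 2 held the highest level of 5 members over the 14 conditions: Dusp6, Spry1, Spred1, Spred2 and Etv4. A pair of members rose, Etv4 from 7.48 to 19.9 FPKM (log2 ratio 1.41) and Spry1 from 7.44 to 15.3 FPKM (1.04), and 0 fell, against 5.7% higher and 9.93% lower of all examined genes. Dusp6 measured 65.2 FPKM in WT and 100.1 in T KO cells (0.62), and Spred1 36.2 and 57.2 (0.66). Spry1 lost its call with a pseudocount of 1, where 1 member passed.

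**Figure D3:**
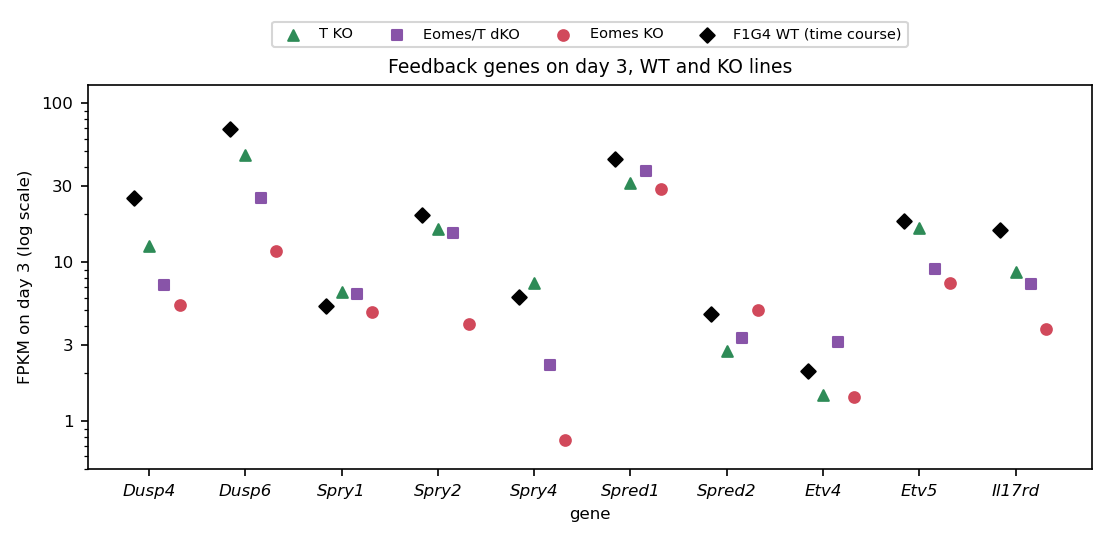
FPKM (log scale) on day 3 of the 10 feedback genes in F1G4 WT cells and in the T, Eomes/T and Eomes knockouts, 1 value per point; the WT points are from the time course. Dusp6 reads 68.6, 47.2, 25.5 and 11.7 in that order, whereas Spry1 lies between 4.88 and 6.53 in all 4.

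Smad4 is the shared partner of receptor-activated Smads in Bmp and Nodal signalling. Its loss left the members close to their WT line. On day 1, 0 members passed, against 2.41% of all examined genes lower and 2.36% higher, with log2 ratios between -0.27 (Etv4) and 0.57 (Spred2) and a median of 0.03. On day 2, 1 member fell and 0 rose, against 3.21% and 2.56%. That member was Il17rd, with 14.4 FPKM in the WT line and 6.13 after Smad4 loss (log2 ratio -1.23). Dusp6 measured 37.3 and 35.0 FPKM, Spry4 5.02 and 5.27, and Etv5 26.1 and 27.8. The median on day 2 was -0.05.

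The 2 WT lines, of which the Smad4 line carries conditional Smad4 alleles, gave a measure of how far the members differ without a knockout. Ratios of Smad4 line WT to F1G4 WT cells were centred on the median of genes above 1 FPKM in both columns. On day 1 the members' log2 ratios lay between -1.05 (Spry2) and 0.78 (Il17rd), and 1 of 10 passed 1 in size, against 11.1% of 11177 genes. On day 2 the members lay between -0.76 (Dusp6) and 0.69 (Il17rd), and 0 passed, against 5.08% of 11119 genes. These columns come from separately made tables of different lines. The 6 Eomes KO values called on day 3 were larger in size than any of these. In size alone, Dusp4 in T KO on day 3 (-1.02) and Spry1 in T KO on day 2 (1.04) were below the largest (Spry2, -1.05). The Spry1 value was above the highest positive one (0.78). Etv5 in dKO on day 3 (-1.06) lay just past -1.05. Between the WT lines on days 1 and 2, Spry1 itself had 0.03 and -0.03, Dusp4 -0.68 and -0.26, and Etv5 -0.92 and -0.12.

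**Figure D4:**
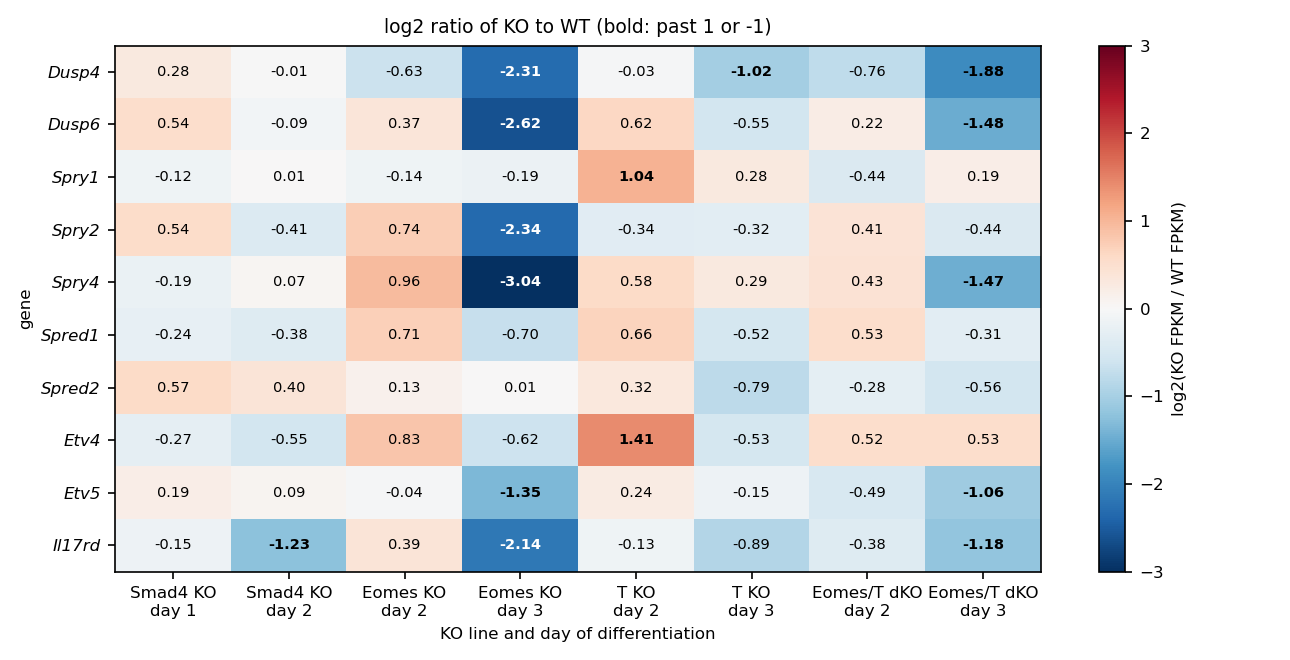
log2 ratio of KO to WT FPKM for the 10 feedback genes (rows) in the 8 KO comparisons (columns), in bold where past 1 or -1. Eomes KO on day 3 holds 6 bold values, from -1.35 to -3.04, and Smad4 KO on day 1 holds none.

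**Figure D5:**
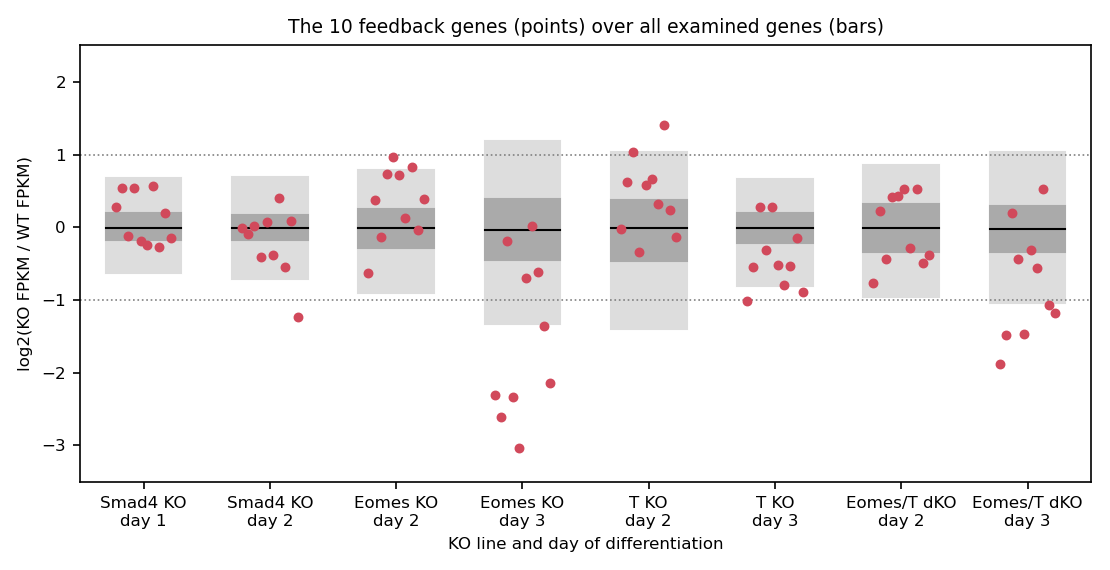
The 10 feedback genes (points) over all examined genes in each KO comparison; light bars span the 5th to 95th and dark bars the 25th to 75th percentile, with the median as a line, and dotted lines mark 1 and -1. In Eomes KO cells on day 3 the light bar reaches from -1.33 to 1.18, and 6 points lie below it.

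The 3 F1G4-derived knockouts share WT samples, so their values are set side by side only. The ligands with the highest WT level on day 3 were Fgf8 and Fgf5. Fgf8 measured 57.6 FPKM in the WT column and 1.24 after Eomes loss (log2 ratio -5.54), 57.4 and 10.5 in dKO (-2.45), and 55.7 and 16.8 in T KO (-1.73). Fgf5 measured 27.1 and 1.15 FPKM in Eomes KO (-4.57), 27.0 and 4.05 in dKO (-2.74), and did not pass in T KO (0.22). By log2 ratio the 3 lines thus took the same order for Fgf8 as for Dusp6 on day 3. Dusp4, Spry1, Spry2, Spry4, Etv5 and Il17rd had that order too, whereas Spred1, Spred2 and Etv4 did not. Spred2 took the reverse order, with 0.01 in Eomes KO, -0.56 in dKO and -0.79 in T KO. Of 8 ligands examined on day 3, 5 fell and 0 rose in Eomes KO. In dKO 4 fell and 1 rose, and in T KO 2 fell and 2 rose. On day 2 Fgf8 also fell in Eomes KO (-2.52) and T KO cells (-1.01), where Dusp6 had 0.37 and 0.62. A link between ligand and member values was not tested.

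In Smad4 KO cells on day 2 Fgf8 measured 0.154 FPKM against 19.8 in WT (log2 ratio -7.01), a larger difference than in any F1G4 derivative, while 9 of 10 members did not pass. Fgf5 measured 23.9 FPKM in WT and 37.7 in KO cells there. The summed level of the 13 ligands was 61.4 FPKM in WT and 54.7 in KO cells, compared with 98.5 and 11.3 in the Eomes KO comparison on day 3. These sums include Fgf13, which is not secreted, and the 2 comparisons differ in line and day. A link between the sums and the member values was not tested.

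None of the 4 listed FGF receptors passed in the lower direction in any KO comparison. Only 2 were above the minimum in each comparison, and 3 in dKO cells on day 3. In Eomes KO cells on day 3 Fgfr2 rose from 7.52 to 20.6 FPKM (log2 ratio 1.45), and Fgfr1 had a log2 ratio of 0.84, with 51.7 FPKM in KO cells. Fgfr2 also rose in Smad4 KO cells on day 2, from 6.19 to 16.3 FPKM (1.40), and 1 receptor rose in dKO cells on day 3. Of the genes of Ras/ERK transduction, Map2k1, which encodes MEK1, fell in dKO cells on day 3 (log2 ratio -1.09), and 0 of 17 examined passed in T KO cells. In T KO cells on day 2 the adaptor Grb2 (-2.10) and Mapk3, which encodes ERK1 (-1.24), fell.

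Other members of the same families also moved. In Eomes KO cells on day 3, 3 of 10 examined fell and 1 rose: Dusp2, a nuclear phosphatase, had a log2 ratio of -5.44, Dusp5 -2.39 and Dusp16 -1.10, and Dusp9 had 1.04. Dusp5 had risen in the same line on day 2 (1.85). Immediate early genes, which respond to ERK and to stress within minutes, had another pattern: on day 2, 5 of 12 fell in Eomes KO, 8 of 12 in dKO and 5 of 12 in T KO cells, with 0 rising, led by Egr1 (-3.52, -4.375 and -2.64). These comparisons share their WT samples, in which 7 of 12 rose and 0 fell between days 1 and 2. Egr1 measured 3.97 FPKM in the F1G4 WT column of the Eomes KO comparison on day 2. In Smad4 line WT cells it was 0.554 FPKM on that day. On day 3, 1 of 9 fell in Eomes KO, 0 of 9 in dKO, and in T KO 1 of 11 fell and 3 rose. In Eomes KO cells the immediate early genes passed mostly on day 2 and the feedback genes on day 3.

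Marker genes of other cell types also differed on day 3. The 6 nascent mesoderm markers all fell in each of the 3 lines, from 407.5 to 7.84 FPKM summed in Eomes KO, 405.4 to 12.5 in dKO and 393.8 to 15.8 in T KO cells, with Mesp1 at 0 in all 3. The list holds the targeted genes, and T alone made up 334.0, 332.3 and 322.8 FPKM of those WT sums. Without T and Eomes, the other 4 markers also fell in each line, from 53.2 to 3.10 FPKM summed in Eomes KO, 53.0 to 10.2 in dKO and 51.5 to 7.95 in T KO cells. The 4 neural markers summed to 3.06 and 7.70 FPKM, 3.05 and 12.8, and 2.96 and 3.56 in the same comparisons. In Eomes KO cells the neural marker Sox1 rose (log2 ratio 4.85) while Sox3 fell (-1.02). The 4 definitive endoderm markers summed to 7.99 and 0.374 FPKM in Eomes KO, 7.95 and 0.512 in dKO, and 7.71 and 3.23 in T KO. The part of all these markers in the feedback gene values was not tested. Dusp4 lies on chromosome 8 (mm10 chr8:34807610-34819894, plus strand), whose genes had a median log2 ratio of 0.17 to 0.23 in all 6 comparisons of F1G4 derivatives. These comparisons share WT samples within a day, and the part of that shift in the Dusp4 values was not tested. Il17rd lies at chr14:27038964-27107286 (plus), Etv4 at chr11:101769747-101785310 (minus), Spred1 at chr2:117121071-117182279 (plus) and Spred2 at chr11:19924442-20024026 (plus), all in mm10.

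Over the 14 conditions the members varied by different amounts. The highest value was 35.2 times the lowest for Spry4, 14.0 times for Etv4, 8.55 times for Dusp6 and 1.99 times for Spred1. Pearson's r of log2(FPKM + 0.1) over these 14 conditions, which share lines and tables, was highest between Spry4 and Etv5 (0.90), with 0.80 between Etv4 and its closest member Etv5 and 0.70 between Spry2 and its closest member Spry4, and it was lowest between Spred2 and Il17rd (-0.20). Among 9284 genes, those most like the mean member profile were Fam98c (0.88), Ell2 (0.85), Gk (0.85), Cct2 (0.85) and Etv1 (0.85), the last a further Pea3-family ETS factor beside Etv4 and Etv5.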

How the data were processed

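RNA-seq libraries were made from differentiating mouse ES cells. Per the study's methods, the authors trimmed reads with cutadapt 2.9, aligned them with HISAT2 2.1.0 to mm10, sorted them with SAMtools 1.9 and computed FPKM with Cuffdiff 2.2.1. The deposited tables (9 tables, 20 columns) hold 1 FPKM value per gene and condition; the labels list 1 sample per KO line and day, whereas figure legends call plotted KO values replicate averages, and the number pooled per KO column remains unclear. ChIP-seq and ATAC-seq data were not used.

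Ratios were taken within a table, without a pseudocount, in Python 3.11.15 with pandas 2.3.3 and numpy 2.4.6. A gene was examined above 1 FPKM in either column and called past a log2 ratio of 1 or -1. Lines were compared across tables after median centring. Scripts were tested on simulated data. Trend removal was tested only on an evenly spread property and passed, so it is less sure for genes of extreme GC content or length. All 10 members were named; listed pathway genes were named when called (at most the 3 largest each way), as were ligands and receptors above 5 FPKM and the 5 genes most like the members' mean profile. Members and lists were chosen with earlier results of these data known. Alternatives were 2 pseudocounts, FPKM minima, TPM and median scaling, the time-course WT column, and removal of GC or length trends, the last chosen after seeing the data, as were the TPM ranking over conditions and the mesoderm markers without T and Eomes. In upstream windows CCGGAA, CCGGAAGT and GGTGTGA were searched first, and GGAA was added after they had no match. Some results on genes of Ras/ERK transduction are not reported here.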

Additional observations from a re-analysis of the deposited data

Results flagged for a closer look

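Some members had ratios of opposite sign on days 2 and 3 in 1 KO line, with at least 1 of the days past the 2-fold rule. In Eomes KO cells the log2 ratio to WT on day 3 minus that on day 2 was -4.00 for Spry4, -3.08 for Spry2, -2.99 for Dusp6 and -2.52 for Il17rd, each positive on day 2 and called lower on day 3. In dKO cells it was -1.89 for Spry4 and -1.71 for Dusp6. In T KO cells it was -1.94 for Etv4, called higher on day 2 and at -0.53 on day 3. With 1 value per condition these differences were not tested. Scaled to TPM, Dusp6 in dKO cells on day 2 had -0.18, so its signs were then no longer opposite.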

How the results depend on the processing

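Of 176 recomputed counts and medians, 166 were unchanged or within 1.5 times of the main value. A reversal was counted only for a median past 1 in size, and none was found. Smaller medians could change sign without being counted. The count of members called was 1 instead of 2 between ES cells and day 1 with a pseudocount of 0.1, with a pseudocount of 1, with TPM and with median scaling, since Etv4 lay at the threshold. With a pseudocount of 1 it was 1 instead of 2 in T KO cells on day 2 and 0 instead of 1 on day 3. With the length trend removed it was 1 instead of 0 in Eomes KO on day 2 (Spry4), 0 instead of 1 in T KO on day 3 and 3 instead of 5 in dKO on day 3. With TPM it was 1 instead of 0 in dKO on day 2 (Dusp4). The causes were not tested. The count for Eomes KO on day 3 was 6 under each alternative run. Spry4 there moved to -2.05 with a pseudocount of 1.

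TPM scaling moved all log2 ratios by -0.22 (Eomes KO day 2), 0.28 (Eomes KO day 3), 0.12 (T KO day 2), -0.41 (dKO day 2) and -0.11 (dKO day 3). The share of all calls that were higher went from 44.5% to 27.1%, 45.0% to 72.0%, 36.5% to 52.0% and 43.6% to 13.0% in the first 4. The members' median in dKO cells on day 2 went to -0.44. The sign of 1 member changed in each of those 4. No paired analysis was possible because each condition has 1 value.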
